A study of Ovis aries with 3 samples.

Results

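The galectin transcripts of sheep conceptus vesicles were examined across 3 libraries. Members were the rows of the deposited expression table whose symbol begins with LGALS once a numbered suffix is removed, and the rows without a symbol whose description contains the word galectin. The rule found 14 of 25197 rows, 8 with a symbol and 6 with an Ensembl identifier alone. LGALS3BP, LGALSL and the row described as galectin-related inter-fiber protein met the rule by name or description and are relatives or partners of the galectins rather than typical members. All 3 libraries formed 1 group of unmodified conceptuses of day 14 (the embryo with its extraembryonic membranes), with no control group. Each intact Ovis aries conceptus was kept for 24 h in its own dish of 10 ml medium with 10% exosome-depleted fetal bovine serum, the medium was filtered, and the extracellular vesicles, small membrane-enclosed particles shed by cells, were precipitated from it. RNA of these vesicles was sequenced as full-length cDNA. The labels name no animal for any library, so p-values measure only the spread between these libraries, which may be technical.

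Galectins are small lectins that bind beta-galactoside sugars on glycoproteins and glycolipids. They are made in the cytosol without a signal peptide and leave cells by unconventional routes, and outside the cell they bridge glycans of cell surfaces and matrix. In the sheep uterus, galectin-15 is known as a product of the luminal and superficial glandular epithelium that rises in early pregnancy under progesterone and interferon tau, is secreted into the uterine lumen and accumulates as crystals in the conceptus trophectoderm.

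Values were taken as RPKM-type, that is, reads scaled for gene length and library depth. The deposited table names no unit, so setting levels of different genes side by side rests on this reading. A row counted as detected when none of the 3 libraries had it below 1. As background, 476 olfactory receptor rows, a class of sensory neuron genes, had a median of 0.1 in each library. Their 99th percentile was 1.45, 1.025 and 1.75 and their maximum 3, 1.9 and 3.4 in libraries 1, 2 and 3. The libraries summed to between 9531.8 (library 3) and 40060.3 (library 2), and 9.37%, 13.6% and 7.88% of all rows reached a value of 1 in libraries 1, 2 and 3.

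Of the 14 galectin rows, LGALS15 and LGALS3 were detected, against 3.89% of all rows and 3 of the 476 olfactory receptor rows. These were also the only members at 1 or more in any library. Both lay above the 99th percentile of the olfactory receptor rows in every library, as did 2.37% of all rows, and both reached 2 in every library, as did 1.89% of all rows. At a value of 0.5 the count was 3 galectin rows, beside 7.56% of all rows, and 6 were above 0 in every library, beside 38.8%. The other 12 members never exceeded 0.8. The median over all 14 rows was a value of 0.1, 0.2 and 0.1 in libraries 1, 2 and 3, beside 0.1 in each library over all rows of the table. The family was thus represented by 2 transcripts in these libraries, while its median lay at or near that of all rows. Together the 14 rows summed to 22.8, 82.8 and 15.6.

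**Figure D1:**
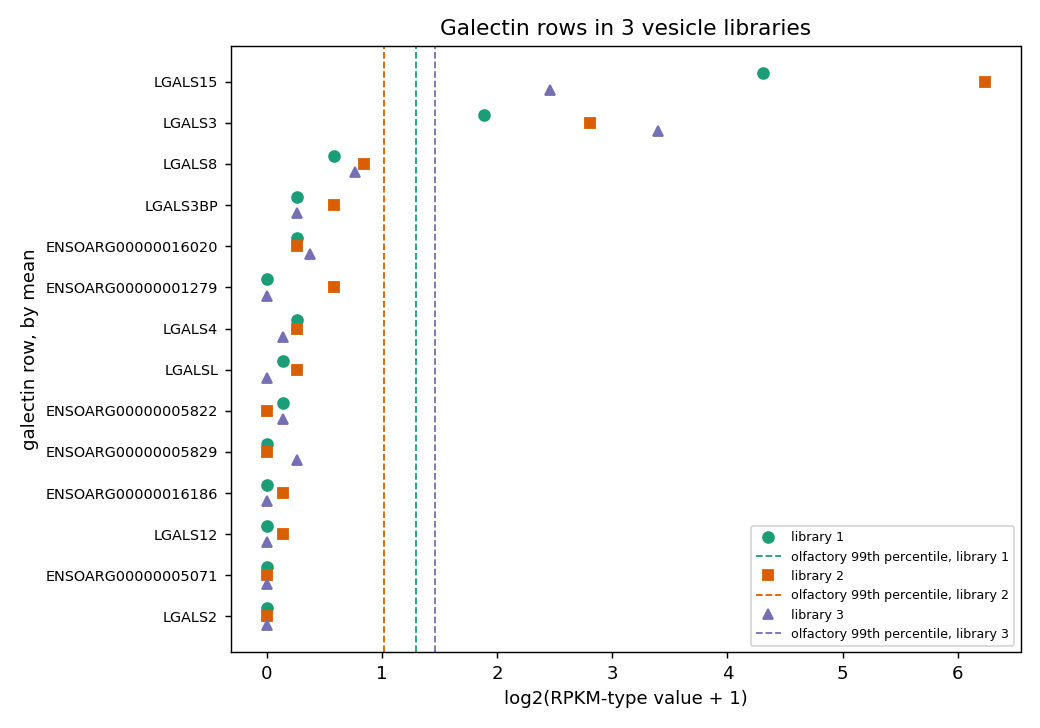
RPKM-type level of each of the 14 galectin rows as log2(value + 1), ordered by mean, with 1 symbol per library. Dashed lines mark each library's 99th percentile of olfactory receptor rows, and only LGALS15 and LGALS3 lie to the right of them in every library.

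LGALS15 (ENSOARG00000019088, described only as a galectin) stood at 18.8 in library 1, 74.2 in library 2 and 4.5 in library 3. Its mean of 32.5 ± 36.8 (SD, n = 3) was the 51st highest of the 18262 rows with a symbol and the 93rd highest of all rows. The SD exceeded the mean, and the value in library 2 was 16.5 times that in library 3. Without library 2 the mean was 11.65. Within the libraries LGALS15 ranked 115th, 78th and 289th of all rows. No olfactory receptor row reached it in any library, and it was 12.97, 72.4 and 2.57 times their 99th percentile in libraries 1, 2 and 3. Over their highest row the margin was 6.27, 39.1 and 1.32 times, so library 3 gave the narrowest distance from background.

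In the deposited values the wide spread of LGALS15 followed the common order of the libraries but was larger than that of most detected rows. Of the 981 detected rows, 501 (51.1%) had the order seen for LGALS15, highest in library 2 and lowest in library 3. The ratio of the highest to the lowest library had a median of 3.68 over these rows, and 96.7% of them had a smaller ratio than LGALS15. As a share of the summed value of its library, LGALS15 took 0.108% in library 1, 0.185% in library 2 and 0.0472% in library 3. The range was therefore narrower after division by the sum, with the same order. On that scale 269 of the 981 detected rows (27.4%) were highest in library 2, against 75.0% in the deposited values, and 567 (57.8%) were highest in library 3. A peak in library 2 was thus less common once the sum was divided out.

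LGALS3 (ENSOARG00000021088) encodes galectin-3, which joins a carbohydrate recognition domain to a proline- and glycine-rich tail and can form oligomers. It stood at 2.7, 6 and 9.5 in libraries 1, 2 and 3, with a mean of 6.07 ± 3.40 (SD, n = 3). It was the 275th highest row with a symbol. Library 3 held its highest value and library 1 its lowest, unlike LGALS15. Among the 981 detected rows, 134 (13.7%) were highest in library 3 and 59 (6.01%) had the full order of LGALS3. As a share of the summed value, LGALS3 took 0.0154%, 0.0150% and 0.0997% in libraries 1, 2 and 3. On that scale 567 of the 981 detected rows (57.8%) were highest in library 3, so a peak there was common once the sum was divided out. In library 1 the value of LGALS3 was 1.86 times the olfactory 99th percentile, but 2 of the 476 olfactory receptor rows reached or passed it. None did in libraries 2 and 3, where LGALS3 was 5.85 and 5.43 times the percentile.

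**Figure D2:**
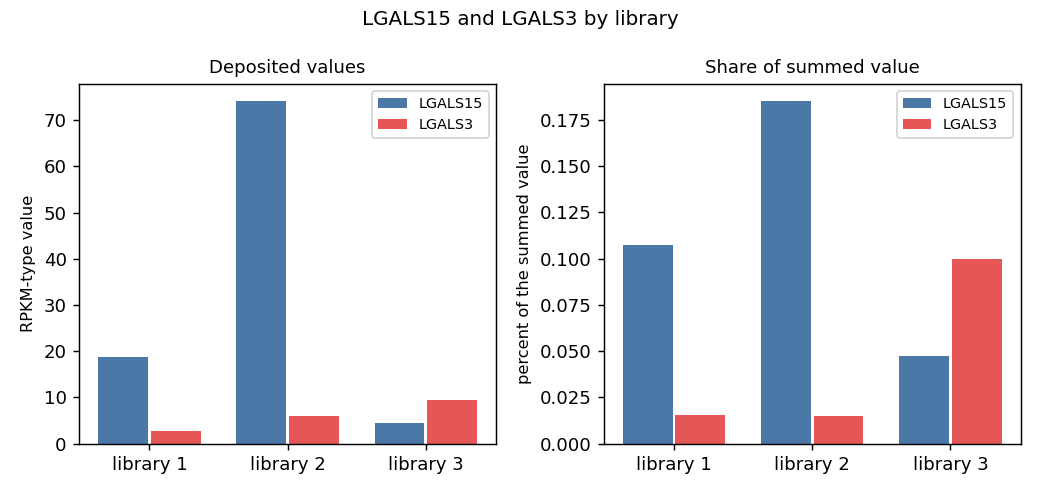
Bars give LGALS15 and LGALS3 in each library, as deposited RPKM-type values on the left and as a percent of the library's summed value on the right. LGALS15 is the higher bar in libraries 1 and 2 and LGALS3 in library 3 on either scale.

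The order of the 2 detected galectins differed between libraries. LGALS15 was 6.96 and 12.4 times as high as LGALS3 in libraries 1 and 2, while in library 3 LGALS3 was 2.11 times as high as LGALS15. The difference LGALS15 minus LGALS3 in log2(value + 1) was 2.42, 3.43 and -0.93, with a mean of 1.64 ± 2.28 (SD, n = 3). It was above 0 in 2 of 3 libraries and did not exceed its spread (exact p = 0.5, two-sided sign-flip permutation test, the only pair tested). The smallest p that 3 libraries allow is 0.25, so this test could not pass a threshold of 0.05. The pair was also picked by the order of means in the same values. Without library 3 the mean difference was 2.92, and without library 2 it was 0.74. LGALS15 accounted for 82.5% and 89.6% of the summed galectin value in libraries 1 and 2 and for 28.8% in library 3, where LGALS3 held 60.9%. In bulk RNA, fewer vesicles with a transcript and less of it per vesicle cannot be told apart.

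LGALS8, the third in order, encodes a tandem-repeat galectin known to recognise glycans exposed on damaged endosomes. It stood at 0.5, 0.8 and 0.7, a mean of 0.667 ± 0.153 (SD, n = 3), and was not detected. Olfactory receptor rows reached its level in 60, 10 and 24 of 476 cases in libraries 1, 2 and 3, so the row lay inside the background range. LGALS3 minus LGALS8 in log2(value + 1) was 1.30, 1.96 and 2.63, a mean of 1.96 ± 0.66 (SD, n = 3). It is given without a test because only pairs of detected rows were tested, and the order was read from the same values.

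**Figure D3:**
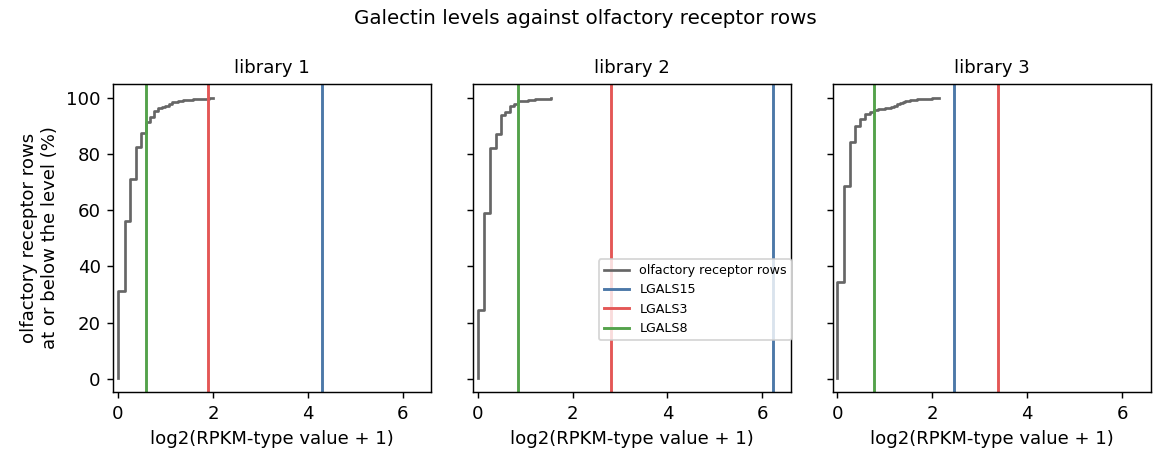
For each library the grey step line gives the percent of 476 olfactory receptor rows at or below a level in log2(RPKM-type value + 1), and vertical lines mark LGALS15, LGALS3 and LGALS8. LGALS8 crosses the grey curve in all 3 libraries, and LGALS3 meets its upper end in library 1.

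The remaining 11 members had no value above 0.5. LGALS3BP, a secreted glycoprotein that galectins bind, stood at 0.2, 0.5 and 0.2 in libraries 1, 2 and 3. LGALS4, a tandem-repeat galectin best known from gut epithelium, stood at 0.2, 0.2 and 0.1. The row described as galectin-14 (ENSOARG00000001279), which in sheep is known from eosinophils, was at 0.5 in library 2 and listed at 0 in the others. LGALSL, a galectin-like protein, stood at 0.1, 0.2 and 0, and LGALS12, known from fat cells, at 0, 0.1 and 0. LGALS2 and the galectin-related inter-fiber protein row, a lens protein gene, were listed at 0 in all 3 libraries. Of the 4 rows described only as galectin, ENSOARG00000016020 was the highest, at 0.2, 0.2 and 0.3.

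The table has no row named LGALS1, LGALS7 or LGALS9, although a current sheep RefSeq gene table lists these symbols, and they were not analysed here by name. The deposited table does not say which galectins its 4 unnamed rows are. How reads of near-identical galectin copies were divided is not given in the sources used here, so the split among galectin rows is uncertain.

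Gene lengths were not used, so the reads behind each member, and hence its counting error, could not be measured. In U6 small nuclear RNA rows, a read corresponded to about 0.425 in library 1, 0.55 in library 2 and 0.45 in library 3, and it is worth less in a longer gene. If LGALS15 were as short as U6, its values would stand for 44.2, 134.9 and 10 reads, and those of LGALS3 for 6.35, 10.9 and 21.1. Since both messenger RNAs are longer than U6, these are lower limits. For LGALS8 the corresponding figures were 1.18, 1.45 and 1.56, which rest on the same assumption and are not estimates of its reads.

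Genes that share the uterine epithelial setting of LGALS15 were read beside it. Of 33 listed symbols 26 had a row, and 4 were detected (15.4%, beside 3.89% of all rows), namely LGALS15, CST6, FXYD4 and IGFBP1. LGALS15 itself is counted among the 4, and the list was chosen with earlier results of these data known, so the share is only a description. The cysteine protease inhibitor CST6 stood at 24.9, 49.1 and 1.1, and the ion transport regulator FXYD4 at 10.4, 30.2 and 1.8 in libraries 1, 2 and 3. Both had the order of LGALS15, with library 2 highest and library 3 lowest. Summed without LGALS15, the list gave 54.5, 131.3 and 11.8. Undetected members with the next highest means were IGFBP3, which binds insulin-like growth factors, at 2.3, 8.5 and 0, the glucose transporter SLC2A1 at 3, 6.7 and 0, and the chemokine CXCL14 at 0.4, 7.6 and 0, all listed at 0 in library 3. Some further undetected rows were named after their values were seen. Among them, hormone receptors of the list were near 0. PGR, the progesterone receptor, stood at 0, 0.5 and 0, and ESR1, an estrogen receptor, at 0, 0.2 and 0. OXTR, the oxytocin receptor, stood at 0.2, 0.2 and 0.1. The uterine serpin SERPINA14, a major secretion of the glands, stood at 0, 0.4 and 0. The part of uterine cells or their vesicles in the LGALS15 level was not tested, by the detected rows or by those near 0.

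The trophectoderm, the outer epithelium of the conceptus, was represented by a list with 17 rows, of which 3 were detected (17.6%, beside 3.89% of all rows). The keratin KRT8 stood at 26.3, 138.9 and 27.3, and TP-1, an interferon tau gene, at 6.7, 26.2 and 4.7. The calcium-binding S100G stood at 2.6, 11.9 and 1.6. TP-1 and S100G had the library order of LGALS15, whereas KRT8 was nearly level between libraries 1 and 3. The list summed to 39.7, 182.4 and 38.2, with KRT8 the largest part in each library. The other rows of the list were not detected. GATA3, the highest of them by mean, stood at 0.9, 0.9 and 3. CDX2 stood at 0.5, 0.2 and 0, EOMES at 0.2, 0.1 and 0.1, and GATA2 was listed at 0 in all 3 libraries. PAG1, not detected, is named only because its symbol may stand for another gene, a phosphoprotein membrane anchor. No row of the list, KRT8 and S100G included, was checked for being particular to trophectoderm. The part of trophectoderm cells in the galectin levels was not tested.

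Galectin ligands, the glycoproteins that galectins are known to bind, were detected at a share near that of the whole table. Of 24 rows, BSG (basigin, a transmembrane glycoprotein) was detected, at 2.1, 8.4 and 4.4, which is 4.17% of the list beside 3.89% of all rows. The lysosomal membrane glycoproteins LAMP1 and LAMP2 stood at 0.9, 3.8 and 1.5 and at 0.5, 2 and 0. The list median was 0.2, 0.15 and 0.1, close to the 0.1 of all rows. None of the 31 genes for enzymes that build or modify the glycans of galectin ligands was detected, beside 3.89% of all rows. The galactosyltransferase B4GALT1, which makes N-acetyllactosamine, led them at 3.4, 1.4 and 0, followed by the chain-extending B3GNT2 at 0.2, 1.5 and 2.3 and, with equal means, the branching enzyme MGAT4B at 1.6, 1.3 and 0.1 and the galactosyltransferase B4GALT3 at 0.3, 0.8 and 1.9. The libraries with the higher values thus differed among these enzymes.

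Other lectins gave a share like that of the table as a whole, with 2 of 48 rows detected (4.17%). These were the chaperone CALR, calreticulin, at 6.8, 22.6 and 8.7, and LMAN1, a cargo receptor between endoplasmic reticulum and Golgi, at 1.7, 3.2 and 1.2. M6PR, which carries lysosomal enzymes, stood at 2.8, 6.9 and 0. All of these act inside the secretory and endosomal pathways, and LGALS15 had a higher mean than any of the 48 rows. LGALS3 was exceeded in mean by CALR.

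Galectin-3 protein is known to enter vesicles through TSG101 and the ESCRT machinery, which buds membrane away from the cytosol. Of 16 rows of that list, the ESCRT-III subunit CHMP2A was detected, at 2, 9.1 and 1.8 (6.25% of the list, beside 3.89% of all rows). CHMP4C, of the same complex, stood at 1.2, 7.7 and 0 and SDCBP, the adaptor syntenin, at 0, 3.8 and 0.8. TSG101 itself was listed at 0 in libraries 1 and 3 and stood at 4 in library 2. These 4 rows had their highest value in library 2, as did 736 of the 981 detected rows of the table (75.0%). Of the 4, only CHMP2A is among those detected rows, so the share is a loose comparison for the others. Only RNA was measured, so these values say nothing of the proteins.

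**Figure D4:**
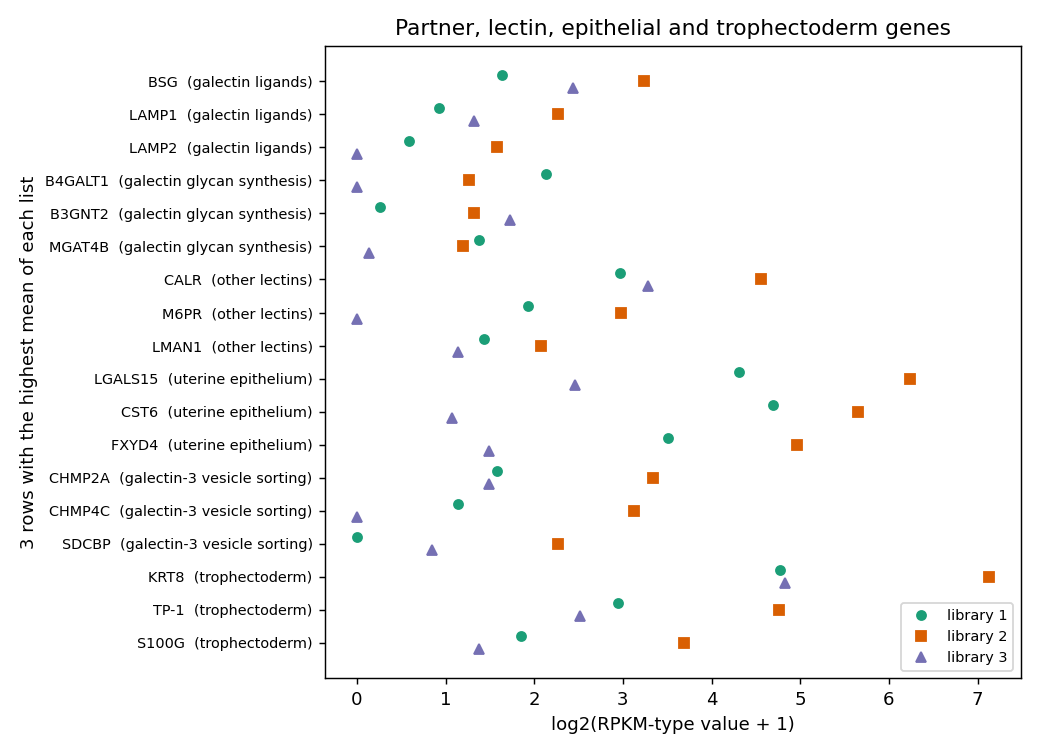
Levels in log2(RPKM-type value + 1) of the 3 rows with the highest mean in each of 6 lists, with 1 symbol per library. LGALS15, CST6 and FXYD4 are lowest in library 3, and KRT8 lies near the same level in libraries 1 and 3.

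The genes whose levels lay nearest to each detected galectin were found by Euclidean distance over log2(value + 1) in the 3 libraries. With 3 points it reads the level of a gene together with its pattern, and it is a description. Nearest to LGALS15 were the tubulin TUBA1B (22, 53.8 and 4.9; distance 0.515), the ATP synthase subunit ATP5G2 (25.6, 61 and 5.7; 0.583) and the cytochrome oxidase subunit COX4I1 (21.1, 49.2 and 3.9; 0.627). The ribosomal protein genes RPS16 and RPL10 followed at distances of 0.680 and 0.696. Nearest to LGALS3 were Metazoa_SRP_15, a copy of signal recognition particle RNA (2.2, 5.2 and 7.9; 0.363), the tropomyosin TPM4 (2, 7.1 and 10.9; 0.410) and the polyamine enzyme ODC1 (2.9, 6.8 and 6.7; 0.480). ACTB_2 and the small nucleolar RNA row SNORA3_2 followed at distances of 0.556 and 0.557.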

How the data were processed

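Poly(A)-primed SMART-Seq v4 libraries from 5 ng of vesicle RNA were read as 50 bp pairs, per the labels' protocols. The submitters' processing notes list the genome build Oar_v3.1. No aligner, counter or annotation release is named by those sources. The deposited table gives 1 value per row and library, rounded to 1 decimal. Its unit is not named, and the deposited values were taken as RPKM because short genes step by more than long genes. FPKM would look alike. Column names were matched to sample titles, and numbers 1 to 3 follow the labels' order. No count model was fitted. The value of 1 read was estimated from the U6 rows with low values above 0, which were 294, 232 and 207 of 1012 in libraries 1, 2 and 3. Of these, 87.8%, 87.1% and 91.3% fitted within rounding. Differences used a pseudocount of 1 and the exact sign-flip permutation test within libraries. List counts are set beside all rows, without a test, and listed symbols without a row were not counted. The 6 lists are galectin ligands, glycan synthesis, other lectins, uterine epithelium, vesicle sorting partners and trophectoderm, and from each the 3 rows of highest mean are named. Further members named (IGFBP1, IGFBP3, SLC2A1, CXCL14, B4GALT3, TSG101, PGR, ESR1, OXTR, SERPINA14, GATA3, CDX2, EOMES and GATA2) were chosen after their values were seen. For likeness, the 5 nearest detected rows with a symbol were named. Members and lists were chosen with earlier results of these data known. No sequence is shown. The functions were tested on simulated data. Python 3.11.15, numpy 2.4.6 and pandas 2.3.3 were used.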

Additional observations from a re-analysis of the deposited data

How the results depend on the processing

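No paired comparison of samples was possible because the libraries form 1 group. The only pairing was of LGALS15 with LGALS3 within each library. The count of 2 detected galectin rows held at a detection value of 2, with the olfactory 99th percentile as threshold and without replicate 1, 2 or 3. It was 3 of 14 at a value of 0.5, with LGALS8 added (7.56% of all rows), and 6 when any value above 0 in all 3 libraries was counted (38.8% of all rows). With every library scaled to the same sum, the mean of LGALS3 was 9.69, up from 6.07, since library 3 had the lowest sum. On that scale LGALS15 averaged 25.3. With every library scaled to the same 90th percentile of rows above 0, LGALS3 averaged 6.48, close to the deposited mean. LGALS15 then stood at 23.3, 53.6 and 5.57 in libraries 1, 2 and 3, with a mean of 27.5. The range of LGALS15 and the mean of LGALS3 thus depended on the scaling. Leaving out 1 replicate gave 11.65 to 46.5 for LGALS15 and 4.35 to 7.75 for LGALS3. LGALS15 minus LGALS3 was 1.77 with a pseudocount of 0.1, 1.59 at equal sums and 0.74 to 2.92 with 1 replicate left out. The sign-flip test could not pass a threshold of 0.05 in any of these settings, since 3 libraries allow no p below 0.25. The mean over libraries of the median log2 level of the 14 rows was 0.18 and became -2.13 with a pseudocount of 0.1, which by construction lowers values near 0. The 12 members below 1 cannot be separated from background here.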

Other observations

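The genes that flank the detected galectins in the sheep RefSeq assembly ARS-UI_Ramb_v3.0 were read beside them. The nearest named protein-coding genes with a row on either side of LGALS15 were DLL3, a Notch ligand gene, at 0.1 in each library, and DYRK1B, a kinase gene, at 0.3, 0.5 and 0.1 in libraries 1, 2 and 3. LGALS3 was flanked by MAPK1IP1L at 0.4, 0.9 and 0.3 and by DLGAP5, a mitotic spindle gene, at 0.4, 0.2 and 0.1. These 4 genes stayed under the detection value of 1 in every library. The second gene beyond LGALS15 on the side of DYRK1B was FBL, the nucleolar methyltransferase fibrillarin, at 2.9, 12 and 0.1. It was highest in library 2 and lowest in library 3 as LGALS15 was, an order held by 501 of the 981 detected rows (51.1%). FBL itself was not among those detected rows. The second genes beside LGALS3 were SOCS4 at 0.1, 0.3 and 0.1 and FBXO34 at 0.3, 0.2 and 0.2. The deposited table uses another build, so the gene order there was not checked.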
